A study of Mus musculus with 18 samples.

Results

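The transcripts described here are Btg2, AK006051, Ppp1r15a, Sik1, Trib1, Cyr61, Ier2, Ier5, Gadd45b and Klf4. They are 10 of the 29942 gene names in the expression table, and were listed because most of them were higher with amphetamine on earlier inspection of these same animals, outside the AP-1 and Egr transcription factor families, with some related early genes of the stress type added. The difference between amphetamine and saline therefore chose them. It is given below as a description without a test. The variation between animals of one group and the promoter sequence, which the choice did not use, are tested or described separately. So are the change between days within a treatment and the dependence of the drug difference on the day. Which days weighed in the choice is not known here, so the choice may have shaped these comparisons of days.

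The study measured polyA RNA of the striatum, taken from both hemispheres above the anterior commissure, in 18 sibling mice of strain 129Sv/Jae S4 that were matched for age and sex and housed in groups. The labels used here leave the ages, the sex and the interval between injection and dissection unstated. There were 6 groups of 3 animals: D-amphetamine hemisulfate salt in 0.9% saline, 7 mg/kg in total per day by the intraperitoneal route, sampled on day 1, day 7 or day 21, and 0.9% saline alone by the same route on day 1, day 7 or day 21. D-amphetamine makes neurons release dopamine and related transmitters, and the title of the study links the striatal transcriptome to repetitive behaviours that the drug induces.

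Early response genes are transcribed within minutes of a stimulus from factors that are already present in the cell, with no need for new protein. In striatal projection neurons, dopamine acting on D1 receptors raises cyclic AMP, and the kinases that follow phosphorylate CREB, a factor that binds the cyclic AMP response element (CRE) in many such promoters. Several products of these genes act as brakes: they limit proliferation, kinase signalling or the block in translation that stress imposes, and similar transcripts also respond to stress in glia and blood vessels.

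The table gave FPKM, fragment numbers scaled by transcript length and library size, a scale on which levels of different genes can be compared. Differences are on the log2(FPKM + 1) scale, which understates changes of low transcripts. All 10 transcripts were among the 13975 genes with a mean of at least 1 FPKM, the limit used for tests. Ier2 was the lowest, with a mean of 1.26 FPKM. Absolute read depth was unknown. The smallest steps between values put the shallowest library at 0.652 of the deepest one. Amphetamine libraries were on average the shallower ones on each day, by these relative depths: 0.811 with amphetamine and 0.883 with saline (day 1), 0.822 with amphetamine and 0.893 with saline (day 7), 0.765 with amphetamine and 0.874 with saline (day 21). The defining markers of striatal projection neurons were present, with a summed level of 3929 to 4740 FPKM in amphetamine libraries and 3887 to 4679 FPKM in saline libraries over 13 genes. In tissue of mixed cells, more cells of one type and more RNA in each cell cannot be told apart.

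Of the 10 names, 9 matched a current gene symbol, with Cyr61 now called Ccn1. AK006051 matched none, so it has no position, function or class here, and whether it overlaps another gene was not tested. RefSeq promoter windows (build GRCm38.p6, 250 bases before to 50 after the annotated start) were at hand for 6 of the 10. Those of Btg2, Ppp1r15a and Cyr61, which were high with amphetamine, are shown with that of Ier5, which was not. The windows of Gadd45b and Klf4 are not shown, and none was at hand for AK006051, Sik1, Trib1 and Ier2. Whether motifs go with the drug difference was not tested. Capitals mark matches to the full CRE, TGACGTCA, or to its core TGACG on either strand, which reads CGTCA when the match is on the other strand.
Btg2 promoter, chr1:134079106-134079405, minus strand: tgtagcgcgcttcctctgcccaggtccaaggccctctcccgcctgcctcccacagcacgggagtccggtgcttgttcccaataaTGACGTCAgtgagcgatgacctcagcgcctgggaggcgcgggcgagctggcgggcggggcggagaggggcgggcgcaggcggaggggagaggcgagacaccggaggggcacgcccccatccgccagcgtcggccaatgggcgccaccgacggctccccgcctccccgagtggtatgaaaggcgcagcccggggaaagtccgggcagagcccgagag
Ppp1r15a promoter, chr7:45526219-45526518, minus strand: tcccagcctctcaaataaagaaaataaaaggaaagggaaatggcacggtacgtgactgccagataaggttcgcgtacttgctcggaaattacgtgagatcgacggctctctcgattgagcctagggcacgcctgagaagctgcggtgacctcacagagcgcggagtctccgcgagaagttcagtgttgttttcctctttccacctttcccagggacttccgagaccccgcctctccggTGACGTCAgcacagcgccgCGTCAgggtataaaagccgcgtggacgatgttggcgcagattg
Cyr61 promoter, chr3:145649936-145650235, minus strand: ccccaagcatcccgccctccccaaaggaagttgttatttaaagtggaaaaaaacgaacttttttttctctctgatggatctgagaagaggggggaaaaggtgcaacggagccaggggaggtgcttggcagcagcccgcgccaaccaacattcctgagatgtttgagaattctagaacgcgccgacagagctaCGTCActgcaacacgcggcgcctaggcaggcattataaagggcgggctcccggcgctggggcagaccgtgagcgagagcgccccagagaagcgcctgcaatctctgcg
Ier5 promoter, chr1:155099587-155099886, minus strand: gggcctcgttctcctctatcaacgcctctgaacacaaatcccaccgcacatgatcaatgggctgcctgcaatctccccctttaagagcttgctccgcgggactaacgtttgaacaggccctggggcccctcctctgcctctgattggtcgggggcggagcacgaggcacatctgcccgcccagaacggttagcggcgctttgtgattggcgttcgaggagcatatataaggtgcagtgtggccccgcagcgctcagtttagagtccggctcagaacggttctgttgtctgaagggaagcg

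The full CRE occurred in Btg2 at positions −166 to −159 from the annotated start, and in Ppp1r15a at −12 to −5. It is its own reverse complement, and each copy holds 2 overlapping matches to the core. Of 32851 promoter windows of the same length in the table, 588 (1.79%) held it. The core alone was found on the other strand in Cyr61 at −58 to −54, in Klf4 at −232 to −228, and once more in Ppp1r15a at positions 8 to 12 past the start. It occurred in 20.8% of all windows. Neither motif was found in the windows of Ier5 and Gadd45b. A CArG box, the element bound by serum response factor, was found in none of the 6 windows and in 1.63% of all windows. A TATA box, TATAAA, searched on both strands like the others, lay at −25 to −20 in Cyr61, at −46 to −41 in Gadd45b and at positions 16 to 21 past the start in Ppp1r15a. It occurred in 13.6% of all windows, and variants of this sequence were not searched. A match in letters is not evidence of binding, and a missing match concerns these windows alone.

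**Figure D1:**
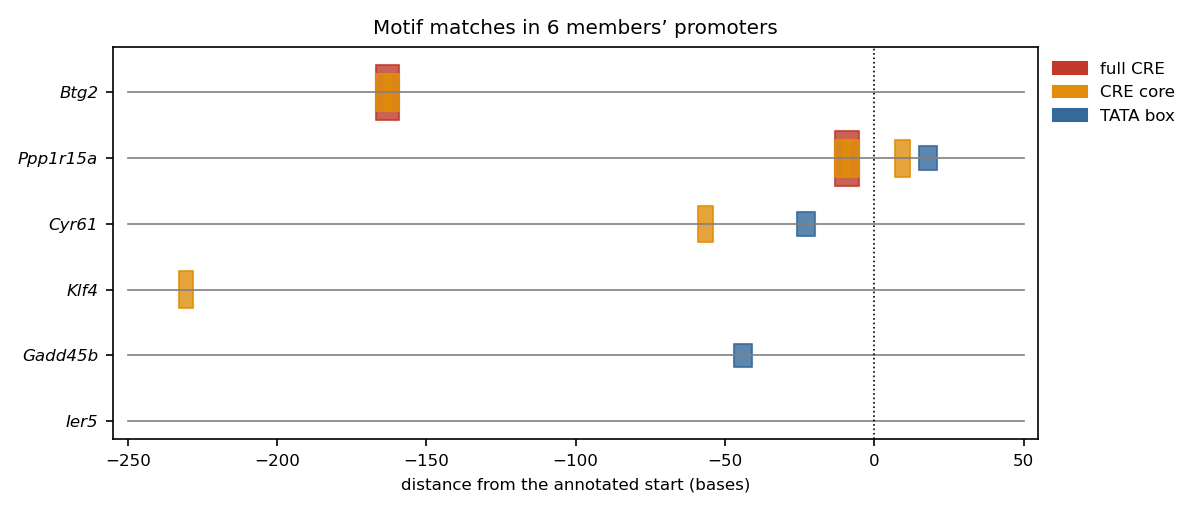
Matches to the full CRE (red), the CRE core (orange) and the TATA box (blue) in the promoters of 6 transcripts, by distance in bases from the annotated start (dotted line). The full CRE appears in Btg2 and Ppp1r15a, and the Ier5 window holds no match to these exact sequences.

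Btg2 encodes an antiproliferative protein of the BTG/TOB family that recruits the CCR4-NOT complex and promotes the shortening of mRNA poly(A) tails. It had the largest difference of the 10. On day 1 it stood at 9.51, 8.76 and 15.7 FPKM in amphetamine animals, against 3.05, 2.34 and 2.11 FPKM in saline animals. On day 7 the values were 5.79, 9.78 and 8.15 FPKM with amphetamine, against 2.23, 1.56 and 2.03 FPKM with saline. On day 21 they were 11.98, 9.60 and 8.63 FPKM with amphetamine, against 3.50, 3.50 and 2.65 FPKM with saline. The lowest of the 9 amphetamine animals, at 5.79 FPKM, thus lay above the highest of the 9 saline animals, at 3.50 FPKM. The amphetamine mean was 4.53 times the saline mean on day 1, 4.07 times it on day 7 and 3.13 times it on day 21, and the log2 differences were 1.78, 1.58 and 1.39, each ± 0.21 (SE from limma, n = 3 animals in each group).

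AK006051 followed the same pattern at a higher level. It stood at 13.2, 13.02 and 20.4 FPKM in amphetamine animals on day 1, against 6.80, 5.32 and 4.39 FPKM in saline animals. On day 7 it was 9.93, 13.6 and 12.7 FPKM with amphetamine and 4.72, 3.43 and 4.36 FPKM with saline. On day 21 it was 15.7, 11.8 and 10.6 FPKM with amphetamine and 5.73, 4.93 and 3.96 FPKM with saline. Here too no saline animal reached any amphetamine animal. The log2 differences were 1.34, 1.34 and 1.22 on days 1, 7 and 21, each ± 0.20 (SE). AK006051 was above Btg2 in every library, and the ratio of its FPKM to that of Btg2 had a median of 1.39 (1.23 to 1.72) in the 9 amphetamine animals and of 2.11 (1.41 to 2.28) in the 9 saline animals.

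Ppp1r15a, also known as Gadd34, encodes the inducible subunit that directs protein phosphatase 1 to the initiation factor eIF2α and so ends the translational block of the integrated stress response. Its levels on day 1 were 7.83, 7.05 and 9.25 FPKM with amphetamine, against 4.83, 5.29 and 5.26 FPKM with saline. On day 7 they were 6.90, 7.94 and 8.01 FPKM with amphetamine, against 4.34, 4.38 and 5.50 FPKM with saline. On day 21 they were 9.25, 7.42 and 7.38 FPKM with amphetamine, against 5.03, 6.32 and 4.78 FPKM with saline. The 9 amphetamine animals again lay above the 9 saline animals, the closest values being 6.90 and 6.32 FPKM. The log2 differences of 0.56, 0.59 and 0.50 on days 1, 7 and 21 (each ± 0.12, SE) were smaller than those of Btg2 and lay close together.

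Sik1 encodes a salt-inducible kinase that retains the CREB coactivators of the CRTC family in the cytoplasm. In amphetamine animals it was 5.78, 4.66 and 5.32 FPKM on day 1, 5.49, 4.94 and 5.13 FPKM on day 7, and 5.86, 5.26 and 4.44 FPKM on day 21. In saline animals it was 3.96, 4.16 and 3.39 FPKM on day 1, 4.21, 3.69 and 4.05 FPKM on day 7, and 3.93, 4.52 and 3.75 FPKM on day 21. The groups were apart on days 1 and 7 and overlapped on day 21, when amphetamine replicate 3 (4.44 FPKM) fell below saline replicate 2 (4.52 FPKM). The log2 differences were 0.37, 0.31 and 0.28 on days 1, 7 and 21 (each ± 0.10, SE).

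Trib1 encodes a pseudokinase that brings the transcription factor C/EBPα to a ubiquitin ligase. It was 2.76, 3.52 and 5.004 FPKM with amphetamine and 1.80, 2.22 and 2.69 FPKM with saline on day 1. On day 7 the 3 amphetamine animals were nearly level at 2.72, 2.77 and 2.72 FPKM, against 1.53, 2.09 and 1.76 FPKM with saline. On day 21 it was 3.23, 2.18 and 2.13 FPKM with amphetamine and 1.54, 1.56 and 1.64 FPKM with saline. The groups did not overlap on any of the 3 days, and the log2 differences were 0.54, 0.42 and 0.43 (each ± 0.16, SE). The day 1 difference was 0.36 without amphetamine replicate 3 and 0.29 with libraries weighted by their quality.

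Cyr61 encodes CCN1, a secreted protein that associates with the matrix and binds integrins. On day 1 its level was 3.33, 3.39 and 3.78 FPKM with amphetamine and 3.01, 3.37 and 1.9998 FPKM with saline, and the groups overlapped. On day 7 it was 2.94, 2.45 and 3.26 FPKM with amphetamine and 1.86, 2.02 and 2.10 FPKM with saline. On day 21 it was 4.04, 3.23 and 4.52 FPKM with amphetamine and 2.08, 2.25 and 2.14 FPKM with saline, and on both later days the groups were apart. The log2 differences were 0.26, 0.37 and 0.64 on days 1, 7 and 21 (each ± 0.13, SE). The day 1 value was 0.10 without saline replicate 3 of that day, the animal at 1.9998 FPKM.

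**Figure D2:**
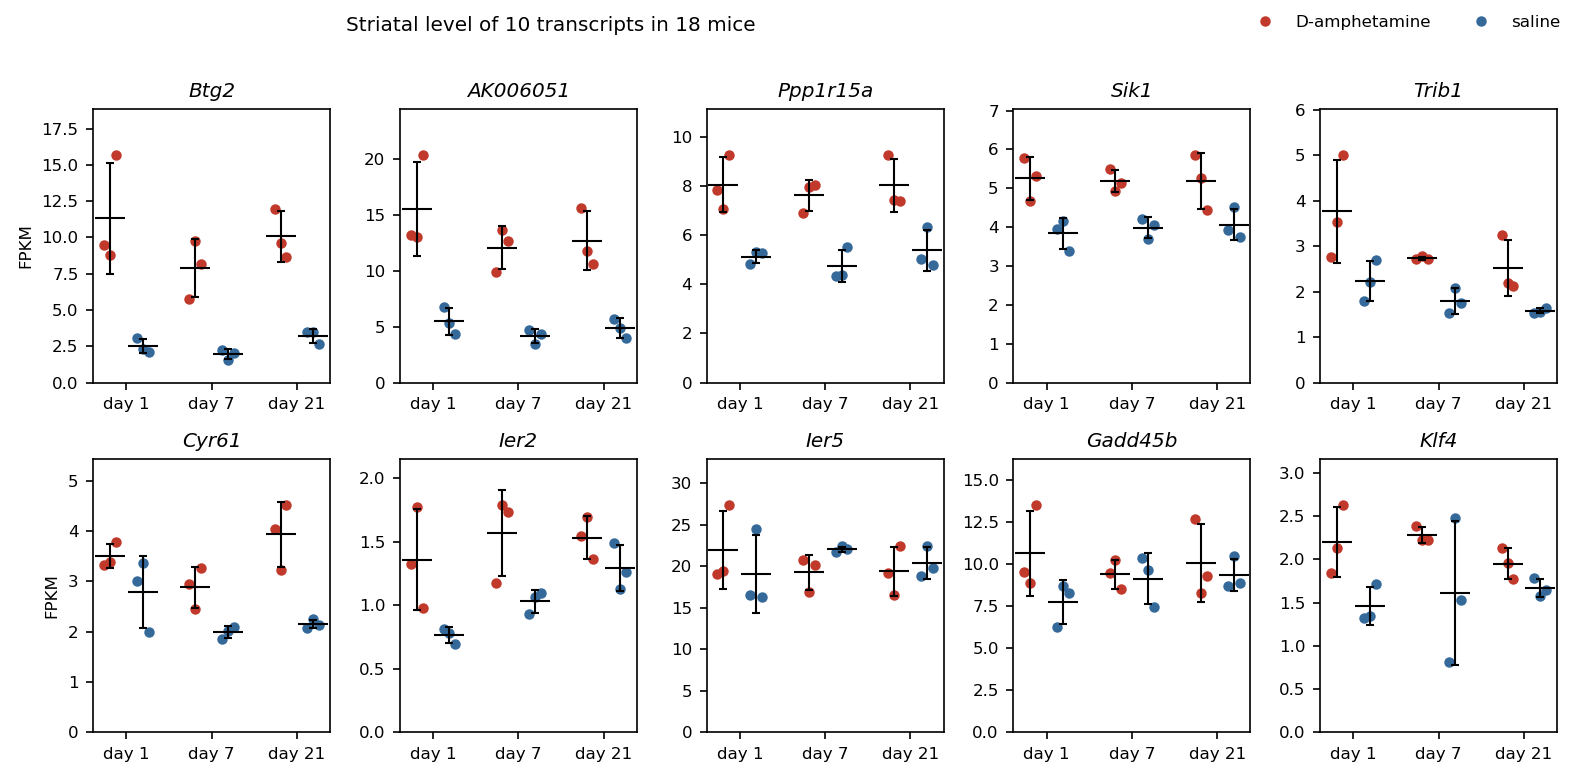
FPKM of the 10 transcripts in every animal (points), with group means and SD (bars, n = 3), for amphetamine (red) and saline (blue) on days 1, 7 and 21. Btg2, AK006051 and Ppp1r15a show no overlap between the 9 amphetamine and the 9 saline animals, whereas Ier5, Gadd45b and Klf4 overlap on most days.

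Of the other early genes, Klf4, a zinc finger transcription factor of the Krüppel-like family, was 1.84, 2.13 and 2.63 FPKM with amphetamine on day 1, against 1.32, 1.34 and 1.71 FPKM with saline. On day 7 it was 2.39, 2.23 and 2.22 FPKM with amphetamine, but 0.816, 2.48 and 1.53 FPKM with saline, so that saline replicate 2 lay above every amphetamine animal and saline replicate 1 far below. Its day 7 log2 difference of 0.38 ± 0.17 (SE) was 0.15 without saline replicate 1 and 0.61 without saline replicate 2. With libraries weighted by their quality, the day 1 difference was 0.23 in place of 0.38. On day 21 the means were 1.95 ± 0.18 FPKM with amphetamine and 1.67 ± 0.11 FPKM with saline (SD, n = 3 each). The groups overlapped on that day, the lowest amphetamine animal being at 1.77 FPKM and the highest saline animal at 1.78 FPKM.

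Ier2, an early response gene whose product is found in the nucleus, was low throughout. On day 1 it was 1.33, 1.77 and 0.980 FPKM with amphetamine, above the 0.815, 0.785 and 0.692 FPKM with saline. On day 7 it was 1.18, 1.79 and 1.74 FPKM with amphetamine, above the 0.931, 1.07 and 1.10 FPKM with saline. On day 21 the groups overlapped, at 1.54, 1.69 and 1.36 FPKM with amphetamine and 1.49, 1.13 and 1.26 FPKM with saline. The log2 differences of 0.41, 0.33 and 0.14 on days 1, 7 and 21 (each ± 0.13, SE) depended on the constant added before taking logarithms, and with 0.1 in place of 1 they were 0.72, 0.54 and 0.23. Without saline replicate 2 of day 21 the value of that day was 0.0917.

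Gadd45b, a stress-inducible protein that binds upstream kinases of the p38 and JNK pathways and takes part in DNA demethylation, was apart on day 1 alone. It was then 9.52, 8.86 and 13.5 FPKM with amphetamine and 6.23, 8.70 and 8.30 FPKM with saline. Its means were 9.39 ± 0.87 FPKM with amphetamine against 9.13 ± 1.53 FPKM with saline on day 7, and 10.1 ± 2.32 against 9.34 ± 0.98 FPKM on day 21 (SD, n = 3 each). On day 1 the log2 difference was 0.40 ± 0.17 (SE), 0.26 with libraries weighted by their quality, and 0.23 without amphetamine replicate 3, the animal at 13.5 FPKM. On days 7 and 21 the differences of 0.04 and 0.08 took either sign when single animals were left out.

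Ier5, an early response gene related to Ier2, had the highest level of the 10 and was not higher with amphetamine. Over all days it ran from 16.6 to 27.4 FPKM, with a median of 19.4 FPKM, in amphetamine animals and from 16.3 to 24.5 FPKM, with a median of 21.8 FPKM, in saline animals. On day 7 the order was turned round: 20.7, 16.9 and 20.2 FPKM with amphetamine all lay below 21.8, 22.4 and 22.1 FPKM with saline. The share of all genes that were lower in this way was not determined, so this order is a description only. The log2 differences were 0.20, −0.19 and −0.07 on days 1, 7 and 21 (each ± 0.16, SE). The day 1 value rested on single animals: it was 0.0344 without amphetamine replicate 3, 0.38 without saline replicate 2, and 0.11 or 0.10 without saline replicate 1 or 3. The day 7 value was −0.10 without amphetamine replicate 2, and that of day 21 ran from −0.18 without amphetamine replicate 3 to 0.0286 without amphetamine replicate 2. Judged by groups that do not overlap, Ier5 was higher with amphetamine on no day, and Gadd45b and Klf4 on day 1 alone. On day 1, 7.73% of all 13975 genes tested were higher in this way. By the same measure Cyr61 was not higher on day 1, nor were Sik1 and Ier2 on day 21.

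Every amphetamine animal exceeded every saline animal of its day for 8 of the 10 transcripts on day 1, 7 on day 7 and 5 on day 21. Among all 13975 genes tested, 7.73% did so on day 1, 5.45% on day 7 and 4.76% on day 21. On all 3 days it held for 4 of the 10, Btg2, AK006051, Ppp1r15a and Trib1, and for 20 genes (0.143%) in the whole table. Over the pooled 9 against 9 animals it held for 3 of the 10 and for 12 genes (0.0859%). Because the transcripts were picked on this very difference, these shares describe the choice and are no support for it. The median log2 difference of the 10 was 0.40, 0.38 and 0.36 on days 1, 7 and 21, and that of all genes 0.05, 0.00 and −0.02.

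**Figure D3:**
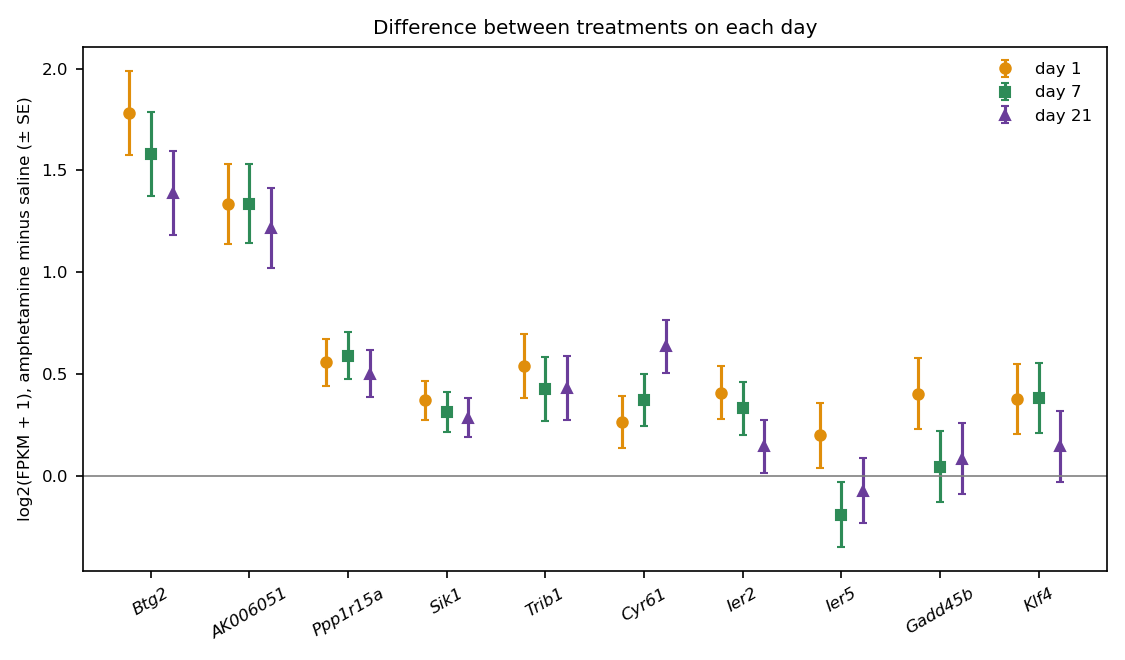
Log2(FPKM + 1) difference, amphetamine minus saline, of each transcript on days 1, 7 and 21 (points, with the standard error from limma). Btg2 and AK006051 lie between 1.22 and 1.78, the other 8 between −0.19 and 0.64.

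In saline animals, where no drug was given, the order of the mean levels was Ier5 (20.5 FPKM), Gadd45b (8.74), Ppp1r15a (5.08), AK006051 (4.85), Sik1 (3.96), Btg2 (2.55), Cyr61 (2.31), Trib1 (1.87), Klf4 (1.58) and Ier2 (1.03), each over 9 animals. The ranges of neighbours in this order overlapped except between Ier5 and Gadd45b, whose closest values were 16.3 and 10.46 FPKM. In amphetamine animals AK006051 (13.4 FPKM), Gadd45b (10.0) and Btg2 (9.76) followed Ier5 (20.2), and Btg2 stood above Ppp1r15a (7.89) and Sik1 (5.21).

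Some libraries led many of the transcripts at once. Amphetamine replicate 3 of day 1 had the highest value of its group for 8 of the 10, all but Sik1 and Ier2. Amphetamine replicate 1 of day 21 did so for 7 of the 10, and amphetamine replicate 3 of day 21, the shallowest library, had the lowest value for 7 of the 10. Whether depth had a part in this was not tested within the group. The matching shares over all genes were not determined, so these counts cannot be read as a trait of the 10 transcripts. With relative depth as a covariate, the mean log2 difference over days was 1.62 in place of 1.58 for Btg2, 1.37 in place of 1.30 for AK006051 and 0.51 in place of 0.55 for Ppp1r15a. It was also larger for Sik1, Cyr61 and Ier2, and smaller for Trib1, Gadd45b and Klf4.

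Markers of other cells were set beside these values. Summed endothelial markers (10 genes), in which Klf4 is also known to be expressed, overlapped between treatments on each day, with 62.3 to 69.4 FPKM in amphetamine libraries and 51.0 to 71.9 FPKM in saline libraries on day 1. Microglial, astrocyte, oligodendrocyte, mural and ependymal sums overlapped on each day as well. Ependymal markers were nonetheless higher in the mean for 7 of 7 genes on days 1 and 7, with a median sum of 18.1 FPKM with amphetamine and 13.9 FPKM with saline on day 1, and of 12.3 FPKM with amphetamine and 7.84 FPKM with saline on day 7. Oligodendrocyte markers were higher in the mean for 8 of 8 genes on day 1, 1 of 8 on day 7 and 0 of 8 on day 21. The choroid plexus list, with all 7 genes in the table and none at 0 throughout, did not overlap on day 1: its sum was 27.2 to 103 FPKM with amphetamine and 10.8 to 19.9 FPKM with saline, with 7 of 7 genes higher in the mean. On day 7 the sum was 8.69 to 31.6 FPKM with amphetamine and 7.93 to 16.03 FPKM with saline, and on day 21 12.3 to 29.5 against 10.9 to 39.0 FPKM. The part of this tissue in the values of the 10 transcripts was not tested. Blood markers, of which 3 were in the table, were apart on day 21, at 152 to 262 FPKM with amphetamine and 91.8 to 147 FPKM with saline, and overlapped on days 1 and 7. Their part in the day 21 values was not tested. Cortical glutamatergic markers (7 genes) were lower in the mean for 7 of 7 genes on days 1 and 21, with overlapping sums.

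Whether the drug difference changed with repeated dosing was asked by the interaction of treatment and day, which does not use the mean over days. The choice may still have favoured some patterns over days, so this test may not be independent of it. None of the 10 passed, with limma adjusted p values from 0.775 for Cyr61 to 0.971 for AK006051, and no gene of the whole table did (0%, with 873 genes or 6.25% at an unadjusted p under 0.05). The drug difference of Cyr61 was larger on day 21 than on day 1, by 0.37 ± 0.18 on the log2 scale (SE; limma unadjusted p = 0.148 for the interaction). That of Btg2 changed by −0.39 ± 0.29 between the same days, and that of Gadd45b by −0.32 ± 0.25 (SE; limma unadjusted p = 0.423 and 0.310). The smallest p values of the table belonged to BC116340 and Dinb1 (limma adjusted p = 0.652 for both).

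Levels were then compared between days within a treatment. In saline animals, none of the 10 passed the threshold for a difference between days 1, 7 and 21 (limma adjusted p from 0.804 for Ier2 to 0.960 for Sik1). Ier2 had the smallest unadjusted p of 0.0369 in limma, with means of 0.764, 1.03 and 1.29 FPKM on days 1, 7 and 21. Cyr61 had means of 2.79, 1.99 and 2.16 FPKM (limma unadjusted p = 0.0605) and Btg2 of 2.50, 1.94 and 3.21 FPKM (limma unadjusted p = 0.0728). A single gene of the table passed in saline animals (0.00716%), Cd72, which encodes a surface protein of B cells (limma adjusted p = 0.0318, followed by Snord1b at 0.294), and 832 genes (5.95%) had an unadjusted p under 0.05.

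In amphetamine animals none of the 10 passed either (limma adjusted p from 0.434 for Trib1 to 0.997 for Sik1), nor did any gene of the table (0%), with 1571 genes or 11.2% at an unadjusted p under 0.05 and Snora5c and Ikbip lowest (limma adjusted p = 0.238 for both). Trib1 had means of 3.76, 2.74 and 2.52 FPKM on days 1, 7 and 21 (limma unadjusted p = 0.0428). Cyr61 had means of 3.50, 2.88 and 3.93 FPKM (limma unadjusted p = 0.0546). Sik1 was steadiest, with means of 5.25, 5.19 and 5.19 FPKM, and Ppp1r15a stood at 8.04, 7.62 and 8.02 FPKM. Btg2 had means of 11.3, 7.91 and 10.1 FPKM, a difference between day 21 and day 1 of −0.12 ± 0.21 (SE) on the log2 scale. Each day had other animals, and the days may also differ in handling and collection, which cannot be told apart from the duration of treatment.

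Variation between animals of the same group, which the choice did not use, was compared with that of Btg2 after removal of the group means. AK006051 followed Btg2 in both treatments, with r = 0.97 and rho = 0.97 among the 9 amphetamine animals (exact permutation within days, p = 0.00463 for each) and r = 0.96 and rho = 0.87 among the 9 saline animals (exact permutation p = 0.00926 and 0.0231). After adjustment over the 18 pairs tested, both Pearson values had an adjusted p of 0.0556 by the exact permutation test, and the Spearman values 0.0833 with amphetamine and 0.104 with saline, all outside the threshold, where the smallest p that the arrangements within days allow is 0.00463. Without the 2 animals farthest from the median in Btg2, r was 0.96 with amphetamine and 0.94 with saline. Ppp1r15a followed Btg2 in amphetamine animals (r = 0.90, rho = 0.88, exact permutation p = 0.0139 and 0.0185, adjusted 0.0625 and 0.104; r = 0.91 without the 2 farthest) but had r = 0.19 in saline animals (rho = 0.27, exact permutation p = 0.718 and 0.537, adjusted 0.9 and 0.967).

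Trib1 ran against Btg2 in saline animals (r = −0.87, rho = −0.88, exact permutation p = 0.00926 and 0.0139, adjusted 0.0556 and 0.104; r = −0.92 without the 2 farthest). Among amphetamine animals it had r = 0.73 (rho = 0.62, exact permutation p = 0.0648 and 0.0972, adjusted 0.179 and 0.262; r = 0.59 without the 2 farthest). The difference between the treatments in these relations was not tested. None of the 18 pairs passed after adjustment. The remaining 12 pairs had r between −0.62 and 0.75, with adjusted exact permutation p values from 0.179 to 0.991. Since the values of 2 transcripts in 1 animal come from the same library, they share its depth and dissection. Whether AK006051 overlaps Btg2, so that some of the same reads count for both, was not tested, and the relation between these 2 cannot be read apart from that.

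**Figure D4:**
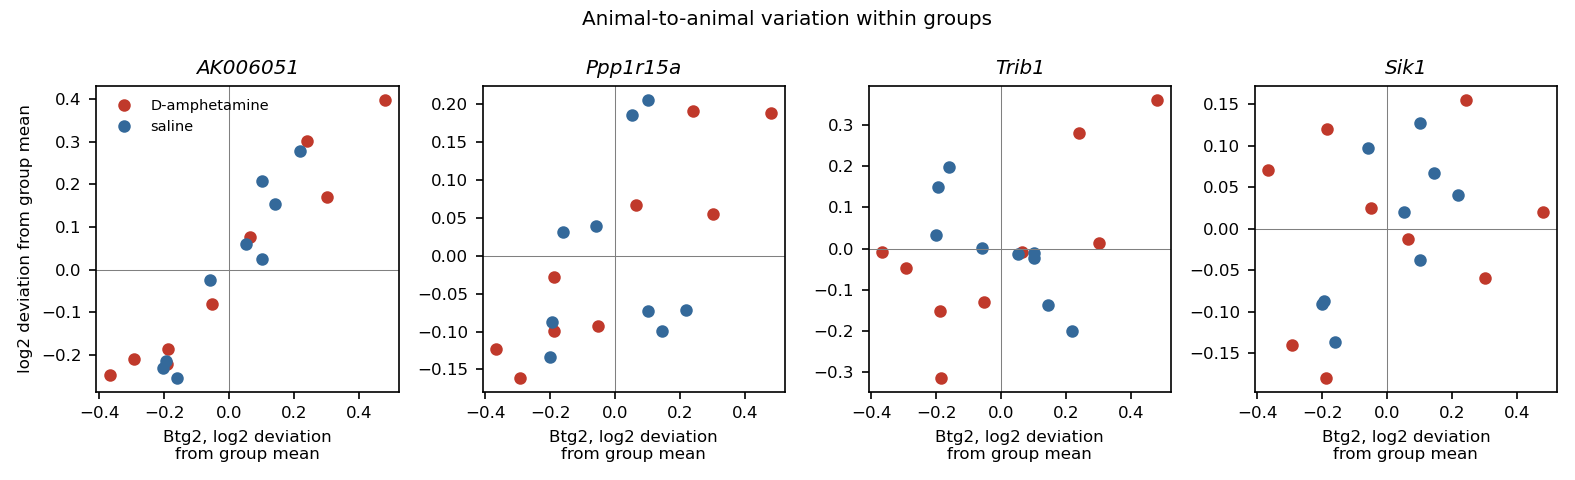
Deviation of each animal from its group mean in log2(FPKM + 1) for AK006051, Ppp1r15a, Trib1 and Sik1 (y axes), against that of Btg2 (x axis), in 9 amphetamine (red) and 9 saline (blue) animals. AK006051 lies along a line with Btg2 in both treatments (r = 0.97 and 0.96), and Trib1 slopes upward in amphetamine animals and downward in saline animals.

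Over all 18 libraries, which include the treatment difference, the genes outside the set most like Btg2 by Pearson's r of log2(FPKM + 1) were Fos (0.967), Dusp1 (0.965), Junb (0.955), Arc (0.918) and Egr2 (0.870). Those most like AK006051 were the same 5 genes in the same order, at 0.973, 0.959, 0.951, 0.938 and 0.916. Within the set, AK006051 was more like Btg2 (0.979) than any other gene in the table was, and Ppp1r15a ranked 5th for Btg2 (0.947). Klf4 (0.577) and Ier5 (−0.02) were far down the order. These points share libraries and the treatment difference, so the values are descriptions.

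Relatives of the 10 transcripts were taken from 11 lists of family members and pathway partners. These lists were drawn up with earlier results of these data known, so their counts and p values are not unselected evidence. The lists held 127 tested genes, of which 89 were higher with amphetamine in the mean of the 3 days, with a median log2 difference of 0.04, against 7776 of 13975 genes and a median of 0.01 in the whole table. Among all 13975 genes, 17 (0.122%) were higher at a limma adjusted p under 0.05 and 0 (0%) lower. Of the 127, 2 rose and none fell by this measure. Both were in the list of other early response genes, where 40 of 43 were higher with a median of 0.15. Rgs2, which encodes a regulator of G protein signalling, averaged 56.1 FPKM with amphetamine and 43.6 FPKM with saline, 0.36 ± 0.06 higher on the log2 scale (SE; limma adjusted p = 0.0227). Plk2, a polo-like kinase gene induced by synaptic activity, averaged 120 FPKM with amphetamine and 97.8 FPKM with saline, a difference of 0.29 ± 0.05 (SE; limma adjusted p = 0.0461). Of the 18 fits that left out 1 library, Rgs2 passed in 10. It did not without saline replicates 2 or 3 of day 1, replicates 1 or 3 of either treatment on day 7, or amphetamine replicates 1 or 3 of day 21 (adjusted p from 0.0531 to 0.0789). Plk2 passed in 2 of the 18, those without amphetamine replicates 1 or 3 of day 1, and had a limma adjusted p of up to 0.129 in the others. Its adjusted p in limma was also 0.0734 with no filter, 0.116 with median-of-ratios scaling and 0.0542 with relative depth as a covariate.

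Among 4 BTG/TOB relatives, 3 were higher and the median log2 difference was 0.04. Btg1, at 8.38 FPKM with amphetamine and 7.44 FPKM with saline, differed by 0.15 ± 0.05, and Tob1 by 0.05 ± 0.05 (SE; limma adjusted p = 0.784 and 0.999). Of 14 genes of the CCR4-NOT deadenylase and its partners, the complex through which Btg2 acts, 9 were higher with a median of 0.02. Cnot3 differed by 0.12 and Cnot10 by 0.16 (limma adjusted p = 0.900 and 0.930). Of 11 genes around the SIK kinases, 5 were higher with a median of −0.01, with Prkaca, a catalytic subunit of protein kinase A, at 0.04 and the histone deacetylase gene Hdac7 at −0.05 (limma adjusted p = 0.999 for both).

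The 4 genes of the Tribbles list were all higher, with a median of 0.06. Trib2 differed by 0.10 and Cebpb by 0.19 (limma adjusted p = 0.998 and 0.985). In the list of the CCN family and YAP/TEAD, 4 of 7 were higher with a median of 0.01, and Nov, the CCN3 gene, varied from 0.392 to 4.66 FPKM in amphetamine animals and from 0.930 to 10.4 FPKM in saline animals. Nov differed by −0.29 ± 0.29 and Yap1 by 0.11 ± 0.05 (SE; limma adjusted p = 0.999 and 0.967). Of the IER relatives, Ier3 was higher by 0.03 and Ier5l stood at −0.000697, close to 0 (limma adjusted p = 0.999 for both).

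Gadd45g, a paralogue of Gadd45b, had the largest difference of the 127 relatives, with 13.4 FPKM with amphetamine against 8.60 FPKM with saline on average. Its log2 difference of 0.58 ± 0.14 (SE) did not pass over all genes (limma adjusted p = 0.329), and on days 1, 7 and 21 it was 0.75, 0.62 and 0.37. In its list 3 of 5 were higher with a median of 0.03, and Map2k3 stood at 0.08 (limma adjusted p = 0.999). In the KLF family 7 of 13 were higher with a median of 0.05. Klf2 differed by 0.40 ± 0.11 and Klf10 by 0.19 ± 0.08 (SE; limma adjusted p = 0.435 and 0.865).

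Genes of the integrated stress response, the pathway that Ppp1r15a closes, had a median of 0.01 with 10 of 15 higher. Among them Eif2ak3, the endoplasmic reticulum kinase PERK, differed by −0.07 and Sesn2, a stress-induced sestrin gene, by 0.14 (limma adjusted p = 0.999 and 0.985). Targets of p53, the factor through which Btg2 is induced by DNA damage, had a median of 0.05 with 10 of 16 higher. Plk3 differed by 0.20 and Bax, a pro-apoptotic gene, by 0.19 (limma adjusted p = 0.800 and 0.931). None of these lists had a gene past the threshold in either direction.

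**Figure D5:**
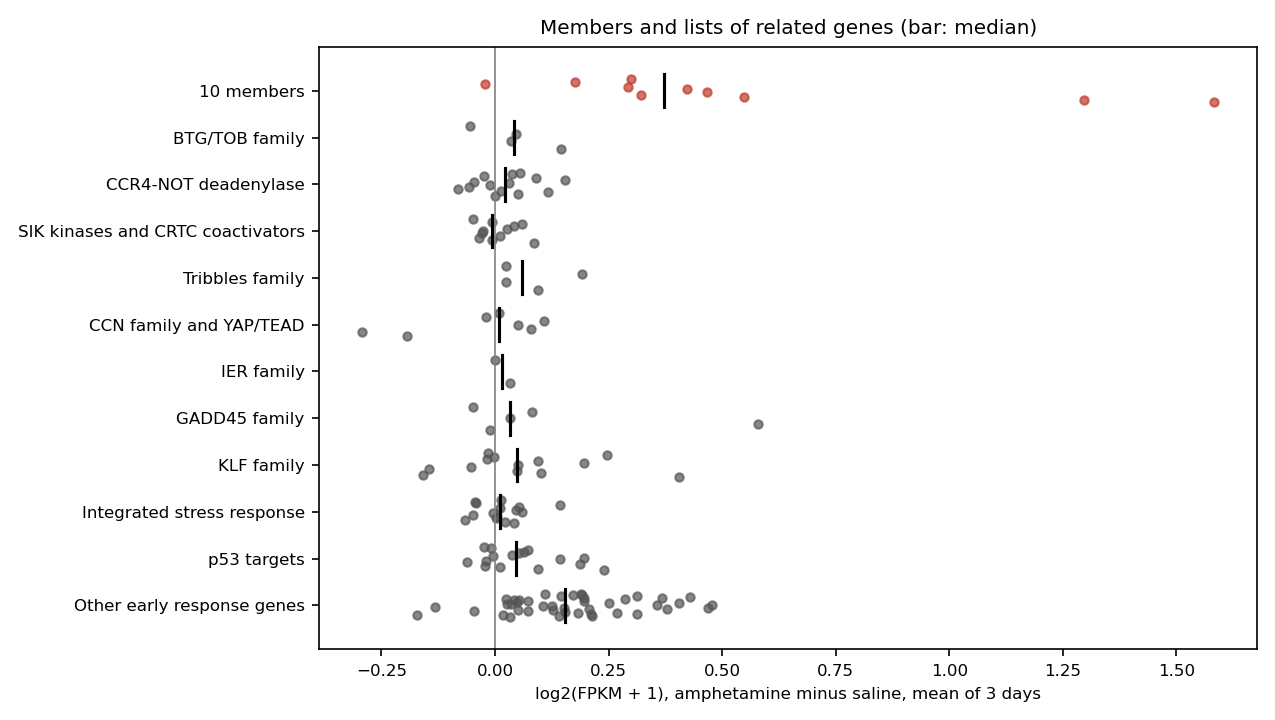
Log2(FPKM + 1) difference, amphetamine minus saline, averaged over 3 days (x axis), for the 10 transcripts (red) and for the tested genes of 11 lists of relatives (grey), with list medians as bars. List medians lie between −0.01 and 0.15, and the relative farthest to the right is Gadd45g at 0.58.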

How the data were processed

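One table of 29942 genes by 18 libraries was used. It held 0 columns from outside the series. Its entries, as deposited, are FPKM that the authors normalized. Bowtie and build mm9 are named, per the submitters' processing notes. The quantifier, annotation and strand handling are not known here, so overlapping genes cannot be told apart. Depth is unknown, and the number of animals limits the precision. P-values from limma set differences between group means against the spread between animals within groups, pooled over the 6 groups. Those of the correlations come from rearranging animals within days.

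The test scale was log2(FPKM + 1). Genes averaging 1 FPKM or more over all libraries (13975) entered limma (version 3.58.1, R version 4.3.3), which fitted 1 mean per group with a trended variance prior. Adjusted p values are two-sided, by Benjamini-Hochberg over all these genes, with a threshold of 0.05. Correlations were permuted exactly within days. The fits were tested on simulated data. Promoter windows came from RefSeq (GRCm38.p6), and since the table's build is mm9, no position was carried between builds.

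The transcripts, lists and tests were chosen with earlier results of these data known. Named genes are the 10 transcripts, the 5 genes most like Btg2 or AK006051, the 2 with the smallest p in each day test, and of each list those past the threshold or otherwise the 2 with the smallest p. Alternatives were another pseudocount, filters, scalings, relative depth, array weights, replicate blocks and leaving out each library.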

Additional observations from a re-analysis of the deposited data

How the results depend on the processing

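Of 40 log2 differences (10 transcripts on 3 days and in their mean), 36 kept their sign under each of 24 alternatives. The exceptions were Ier5 on day 21 and in the mean, and Gadd45b on days 7 and 21, all with overlapping groups. For a single day, leaving out a library of another day cannot change the difference, nor can the block of pairs. Part of the 24 outcomes was therefore fixed in advance. Most transcripts were also picked on the sign itself, so the count is a description and no measure of robustness. The count of genes in the mean of days, 17, was 9 with relative depth as a covariate, 28 with array weights and 5 with the replicate block of pairs. Without 1 library it was 8 to 17, and 11 or fewer without saline replicates 2 or 3 of day 1, any amphetamine replicate or saline replicates 1 or 3 of day 7, or, on day 21, amphetamine replicate 1 or either saline replicate 1 or 3. The interaction gave 0 to 2 genes without 1 library. Days in saline animals, 1 gene, gave 0 with no filter, a minimum of 5 FPKM, quantile normalization, relative depth or the replicate number as a block, 3 with array weights and 0 to 2 without 1 library. Days in amphetamine animals, 0 genes, gave 2 with array weights and 0 to 2 without 1 library. None of the 10 transcripts passed an interaction or day test in these fits (smallest limma adjusted p = 0.239). Rgs2 passed under 17 of 26 alternatives and Plk2 under 6 of 26, and the block of pairs ended both calls (limma adjusted p = 0.367 and 0.495). Same-numbered libraries of a day correlated by −0.0853 to 0.145, 3 of 9 pairs above 0.1 and 4 of 9 highest with their own number. These were replicate 1 of day 1 (0.102) and every replicate of day 21 (0.114, 0.0425 and 0.145), and none was of day 7. The main fit did not take the numbers as pairs. Whether the animals of day 21 were handled as pairs was not tested. Signs turned for uncalled relatives: with relative depth Prkaca was −0.0202 and Ier3 −0.0654, and Ier5l was 0.030 with array weights and −0.071 to 0.0915 without 1 library. The cause of these changes was not tested.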
